A study of Rattus norvegicus with 12 samples.

Results

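The 9 rat liver libraries from animals on a high-fat diet differ widely in the share of their RNA-sequencing counts that comes from the mitochondrial genome, and this is a comparison of the libraries of high share with those of low share. The members of each class were chosen by that measured share: 4 libraries above 15% (M.5, M.6, D.1 and G.3) form the high class, and 5 libraries at 15% or less (M2.1, D.4, D.7, G.1 and G.4) form the low class. These are 9 of the 12 libraries of the series. The remaining 3, from normal livers, had no part in the choice and are used below as a separate reading. Because the share chose the classes, it and the mitochondrial genes are described without a test, and the tests are on nuclear-coded genes scaled to nuclear-coded counts.

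All animals were Sprague Dawley rats, an outbred laboratory stock, and total RNA was taken from liver. The normal group (N.1, N.2, N.3) received saline and no high-fat diet is stated for it. The model group (M.5, M.6, M2.1) had 8 weeks of high-fat feeding, a model of fatty liver, and the didymin groups had high-fat feeding too and were treated with didymin, a flavonoid glycoside of citrus fruit, at a low or a high dose. The columns letter the didymin arms D (D.1, D.4, D.7) and G (G.1, G.3, G.4), and no label pairs a letter with a dose, so no dose is given here. Ages and sexes are not given in the labels, M2.1 is named unlike the other model libraries for a reason the labels do not state, and nothing states that each library is a separate rat. The p-values therefore measure only the spread between these libraries, which may be technical.

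The mitochondrial genome of mammals codes for 13 proteins of the respiratory chain and of ATP synthase, together with the ribosomal and transfer RNAs needed to make them. Its messages are copied inside the organelle from a few long transcripts by a dedicated polymerase, while the many other subunits of the chain are coded in the nucleus, made in the cytosol and imported. Hepatocytes are rich in mitochondria, and their nuclear-coded message is dominated by secreted plasma proteins such as albumin. The share of mitochondrial message in a bulk library depends on the amount of both kinds of RNA, and in bulk samples fewer cells of a type and less RNA per cell cannot be told apart.

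The mitochondrial share was 16.02% in D.1, 18.8% in M.5, 44.1% in M.6 and 60.95% in G.3. In the low class it was 4.90% in M2.1, 5.62% in D.4, 5.88% in D.7, 6.07% in G.1 and 7.88% in G.4. D.1 is the library just inside the threshold and G.4 the one just outside it. Each of the 3 high-fat arms holds at least 1 library of each class, with 2 high libraries in the model arm and 1 in each didymin arm. In the normal livers the share was 4.63% in N.1, 3.85% in N.2 and 11.2% in N.3.

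Total counts lay between 12469914 and 15521648 per library, so a large mitochondrial share left fewer counts for nuclear genes. G.3 had 4869054 nuclear-coded counts and M.6 had 7173229, against 10887482 in M.5, 12425991 in D.1 and 13217135 to 14761817 in the low class. Between 13569 and 14260 nuclear genes had a count in the high class and between 14327 and 14578 in the low class, so values of weakly expressed genes are least precise in G.3 and M.6. The 50 most abundant nuclear genes of each library took 41.2% to 45.6% of nuclear counts in 7 of the libraries, but 33.7% in M.6 and 27.2% in G.3. On the first principal component of nuclear log2 CPM, which held 46.2% of the variance, the libraries ran from M2.1 at −57.8 to G.3 at 96.2. The second component held 16.9%, and it put M.5 and D.1, at 44.8 and 44.1, at one end and G.3, at −46.6, and M2.1, at −40.5, at the other.

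**Figure D1:**
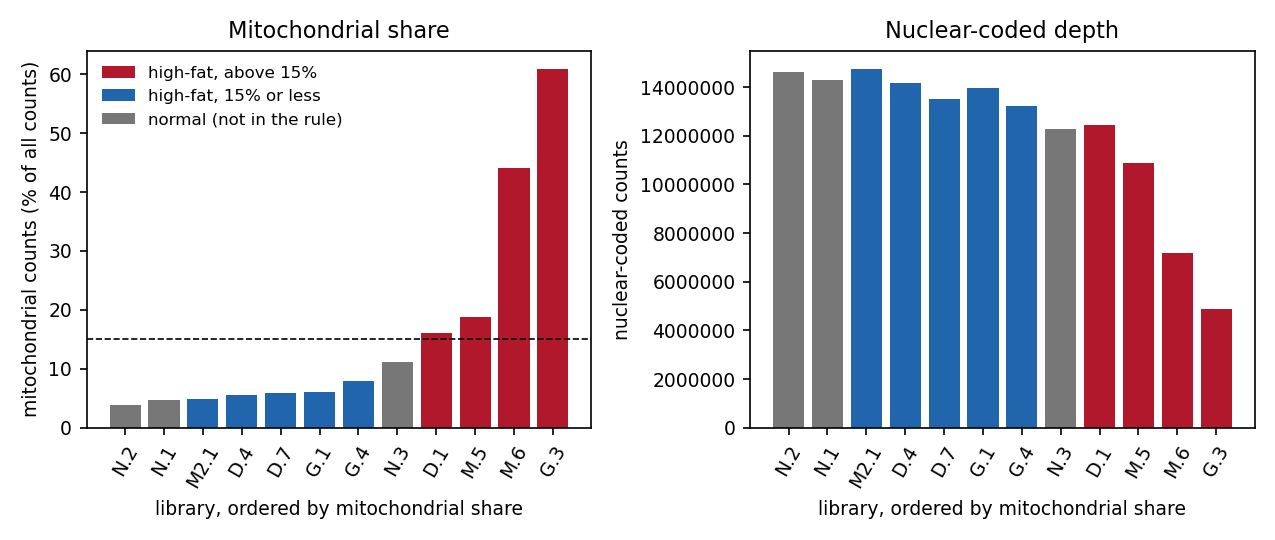
The left panel plots mitochondrial counts as a percent of all counts and the right panel nuclear-coded counts, with 1 bar per library in order of share and the dashed line at 15%. M.6 and G.3, at 44.1% and 60.95%, stand far above M.5 and D.1 and have the fewest nuclear counts.

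The 13 mitochondrial genes were also set against each other, each as a share of the mitochondrial counts. Mt-co1, the catalytic subunit of cytochrome c oxidase, took 34.5% ± 0.87 of mitochondrial counts in the high class (SD, n = 4) and 37.6% ± 0.88 in the low class (SD, n = 5), and Mt-atp6, a subunit of the proton channel of ATP synthase, took 13.2% ± 0.47 and 11.5% ± 1.19. These are the 2 genes for which the classes did not overlap. For Mt-atp6 they almost met, at 12.62% in M.5 and 12.60% in G.4. The other 11 overlapped, among them Mt-cox3, at 13.6% ± 0.77 and 12.9% ± 0.95, and Mt-cyb, the cytochrome b of complex III, at 10.4% ± 0.29 and 11.3% ± 0.54. In the normal livers Mt-co1 took 42.7% in N.1, 40.6% in N.2 and 37.7% in N.3, all above the high class. Mt-atp6 took 9.16% in N.1, 11.9% in N.2 and 12.7% in N.3. These values are given as a description, since mitochondrial counts set the classes.

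To ask which nuclear genes differed between the classes, 12807 nuclear-coded genes were tested with the arm as a covariate. At an adjusted p of 0.05 (edgeR's quasi-likelihood test with Benjamini-Hochberg adjustment), 1753 genes passed, 13.7% of those tested. Of these, 706 were higher in the high class (5.51% of tested genes) and 1047 were lower (8.18%), and 4106 genes had an unadjusted p under 0.05. The classes did not overlap in CPM, the counts scaled to the size of the nuclear library, for 489 of the 706 higher genes, where 6.77% of all tested genes lay above every low library, and for 890 of the 1047 lower genes, where 11.1% lay below every low library. The same 9 libraries gave the calls, so non-overlap among called genes, here and below, is a description and adds no support. The median log2 fold change over all tested genes was −0.01. The split into higher and lower rests on the scaling: with library totals alone in place of TMM factors the median moved by 0.27, and 495 genes were higher and 344 lower, so that 59.0% of the calls were higher in place of 40.3%.

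The number of calls depended on single libraries. Without M2.1, the only low library of the model arm, 4 genes passed in edgeR (0.0314% of those tested, 0.0157% higher and 0.0157% lower), and 2538 had an unadjusted p under 0.05. The model arm then had no low library and its high libraries no longer entered the difference, which was estimated within the didymin arms alone. No member of the gene lists described below passed in that setting. The 4 genes, named after their values were seen, were Aqp5 and Igf2, higher, and Edem3 and 1 gene without a name of its own, lower. With M2.1 left out and no term for the arm, so that all 8 libraries entered, 1387 genes passed. All low libraries were then from the didymin arms, and both model libraries were in the high class. Class and didymin treatment were thus partly confounded, and this count cannot tell them apart. The count was 755 without M.6, 670 without G.1, 1144 without G.4 and 3077 without D.1.

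Among genes with a mean of at least 10 CPM, the 15 with the largest fall from the low to the high class included Cyp3a2, Pcyox1, B3galt1, Iqgap2, Mtdh, Tob2, C4b, Met, Tgfbr2, Elovl5, Cpd, Selenop and Hyal1. All 15 lay below every low library in all 4 high libraries. Cyp3a2, a drug- and steroid-metabolising cytochrome P450 of rat liver, was at 64.3 CPM in M.5, 53.2 in M.6, 265 in D.1 and 78.9 in G.3, against 691 to 1713 CPM in the low class. It had a log2 fold change of −3.52 ± 0.52 (SE) and an adjusted p of 0.00539 in edgeR. D.1 was the highest of the high class and G.4 the lowest of the low class, which is also the order of their shares around the threshold. Reads of Cyp3a2 can be shared with near-identical members of its family, and those of C4b with C4a, so both values are uncertain.

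Iqgap2, a scaffold protein of the cytoskeleton that is abundant in liver, was at 21.8 CPM in M.5, 17.8 in M.6, 35.3 in D.1 and 18.6 in G.3. The low class ran from 110.1 CPM in G.4 to 343 in M2.1, a log2 fold change of −3.04 ± 0.38 with an edgeR adjusted p of 0.00437. Selenop, the plasma selenium carrier made by hepatocytes, was at 331 CPM in M.5, 178 in M.6, 915 in D.1 and 203 in G.3, against 1941 to 2735 CPM in the low class, a log2 fold change of −2.62 ± 0.44. In these genes the high libraries lay below the low ones with a wide gap, and D.1 was nearest to the low class.

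Receptors of growth factors were among the other lower genes. Met, the receptor of hepatocyte growth factor, was at 6.65, 4.42, 8.53 and 1.76 CPM in M.5, M.6, D.1 and G.3 and between 19.0 and 54.7 CPM in the low class, with a log2 fold change of −2.69 ± 0.39. Tgfbr2, a receptor of transforming growth factor beta, was at 12.1, 10.8, 22.8 and 6.48 CPM against 41.5 to 119 CPM, at −2.68 ± 0.32. The classes were apart in both, and M2.1 had the highest value of each.

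The 15 genes with the largest rise were Zmynd10, Rasd1, Pf4, S100a13, Fam193b, Prss53, Akr1c19, Zfp775, Slfn13, Pla2g4b, Kmt5c, Hexdc, Rac3, Mapk1ip1 and Atf3, and in 11 of them the classes did not overlap. Rasd1, a small GTPase that glucocorticoids induce, was at 30.8 CPM in M.5, 99.99 in M.6, 7.50 in D.1 and 103 in G.3, against 3.13 to 7.48 CPM in the low class, a log2 fold change of 3.36 ± 0.60 with an edgeR adjusted p of 0.00948. D.1 was level with G.4, the highest of the low class, and M.6 and G.3 were far above the rest. Fam193b followed the same order, at 78.8 CPM in M.5, 213 in M.6, 29.8 in D.1 and 352 in G.3 against 14.2 to 23.4 CPM, at 2.96 ± 0.56. Pf4, a chemokine of platelets, was at 9.78, 17.4, 14.7 and 66.1 CPM in M.5, M.6, D.1 and G.3, and at 1.13 to 4.59 CPM in the low class, a log2 fold change of 3.30 ± 0.41.

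Atf3, a stress-induced transcription factor, did not separate the classes. It was at 13.4 CPM in M.5, 37.2 in M.6, 116 in D.1 and 256 in G.3, and in the low class at 7.93 in M2.1, 10.1 in D.4, 26.3 in D.7, 77.8 in G.1 and 5.36 in G.4. M.5 lay under D.7 and G.1, and the log2 fold change of 2.33 ± 0.62 had an edgeR adjusted p of 0.0348. Slfn13, Rac3 and Prss53 also overlapped. In arm D, Slfn13 was at 7.59 CPM in D.1, below D.4 and D.7, at 10.9 and 10.3. The 30 genes named by size kept their direction under all 20 alternatives that give a class fold. Without M2.1 none of the 30 passed, with edgeR adjusted p-values from 0.0739 to 0.211. With M2.1 left out and no arm term 29 passed, all but Atf3, but the low class then held didymin libraries only.

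**Figure D2:**
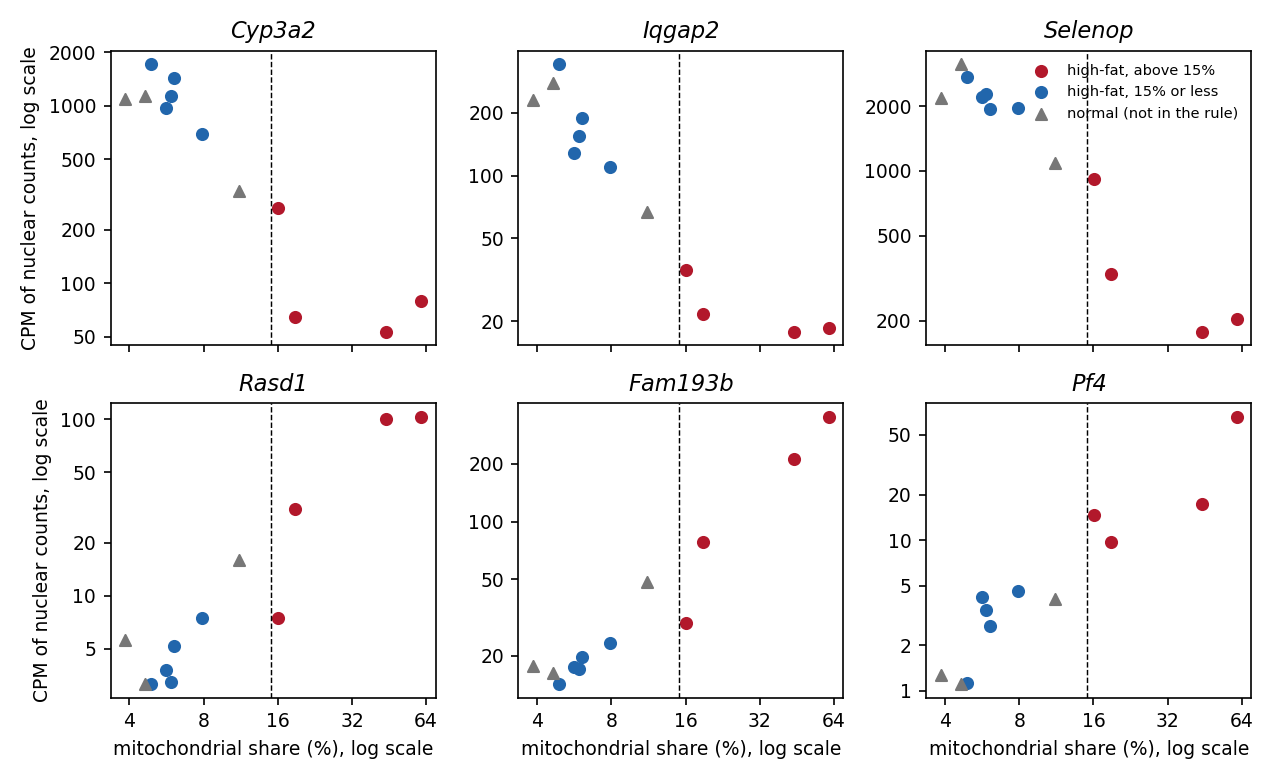
Each panel plots 1 gene as CPM of nuclear counts (log axis) against the mitochondrial share in percent (log axis), with red points for the high class, blue for the low class, grey triangles for the normal livers and a dashed line at 15%. The 4 high libraries lie below all low libraries in Cyp3a2, Iqgap2 and Selenop and above them in Rasd1, Fam193b and Pf4, and N.3, the normal library of 11.2%, lies between the classes in the first 3 genes, among the high libraries in Rasd1 and Fam193b, and among the low ones in Pf4.

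The normal livers, which neither set the classes nor entered the test, gave the same genes a second reading. N.3, at a share of 11.2%, was set beside N.1 and N.2. Of the 706 genes higher in the high class, 84.6% were higher in N.3 than in both other normal libraries, where 40% of all tested genes were. Of the 1047 lower genes, 96.1% were lower in N.3 than in both, where 41.1% of all tested genes were. The median difference of N.3 from the mean of N.1 and N.2, on the log2(CPM + 1) scale, was 0.59 for the higher genes, −0.96 for the lower genes and 0.02 for the genes that did not pass. Of the genes named by size, all 15 lower ones were below both in N.3, and 14 of the 15 higher ones were above both. Cyp3a2 was at 1139 CPM in N.1, 1097 in N.2 and 332 in N.3, and Rasd1 at 3.15, 5.58 and 15.8 CPM. This is 1 library beside 2, with no test.

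**Figure D3:**
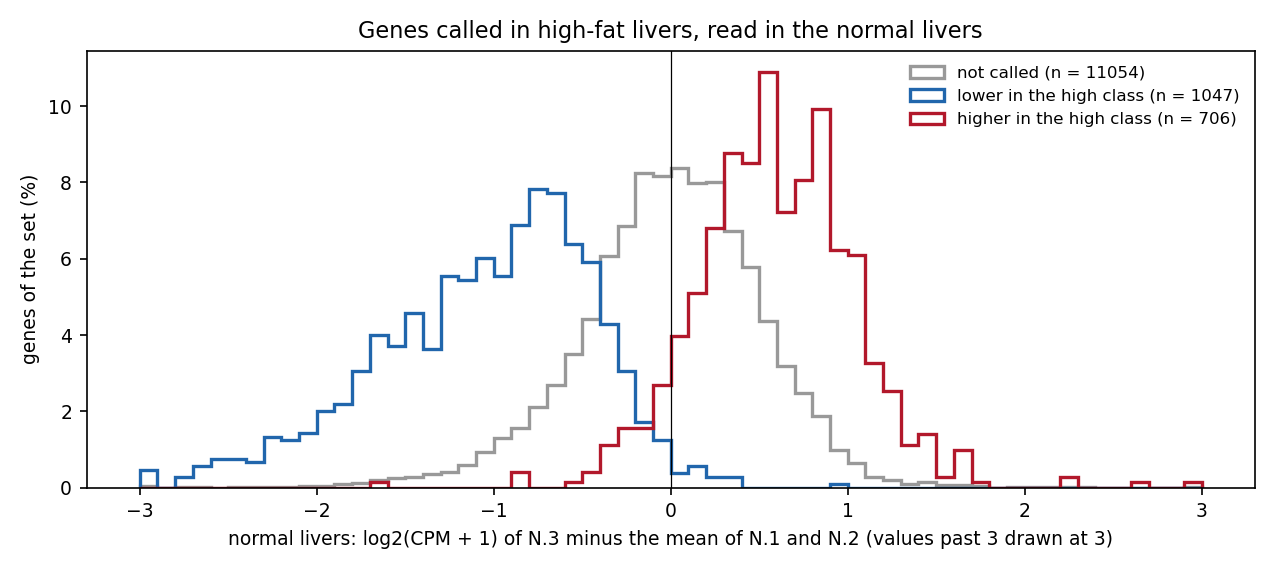
The lines show how the difference of N.3 from the mean of N.1 and N.2, in log2(CPM + 1), is spread over the 1047 genes lower in the high class (blue), the 706 higher genes (red) and the 11054 genes that did not pass (grey), each as percent of its set. The blue line lies mostly below 0, with a median of −0.96, and the red line mostly above it, with a median of 0.59.

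Gene length moved with the classes as well. It is here the length by which the deposited FPKM values (counts scaled by length and depth) divide the counts. This is not the span of the gene on the chromosome, and its annotation is not known. A length could be read for 11798 of the 12807 tested genes, with a median of 2401 bp. The median was 1854 bp for 687 of the higher genes, 2767.5 bp for 1038 of the lower genes and 2404 bp for 10073 of the rest. With the tested genes in 5 equal groups by length, 9.70% of the shortest (up to 1411 bp) were higher and 5.64% lower, and 3.14% of the longest (4082 bp and over) were higher and 10.9% lower. The median log2(CPM + 1), less the mean of the low class, ran from 0.22 in the shortest to −0.16 in the longest in M.5 and from 0.32 to −0.22 in D.1. It ran from −0.02 to −0.05 in M.6, and in G.3 the order was turned, from −0.23 to 0.05. M2.1, of the low class, ran from −0.25 to 0.23, so the slope of M.5 and D.1 was not that of all high libraries, and M2.1 stood apart from the other low ones. The difference of N.3 from N.1 and N.2 ran the same way as M.5 and D.1, from 0.31 in the shortest to −0.26 in the longest, so the reading in normal livers shares this pattern. Among the genes above, Iqgap2 has 7472 bp and Met 4939 bp, both in the longest group, and Tgfbr2 has 2784 bp, while Selenop has 609 bp and Cyp3a2 799 bp. The part of gene length in these results was not tested.

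**Figure D4:**
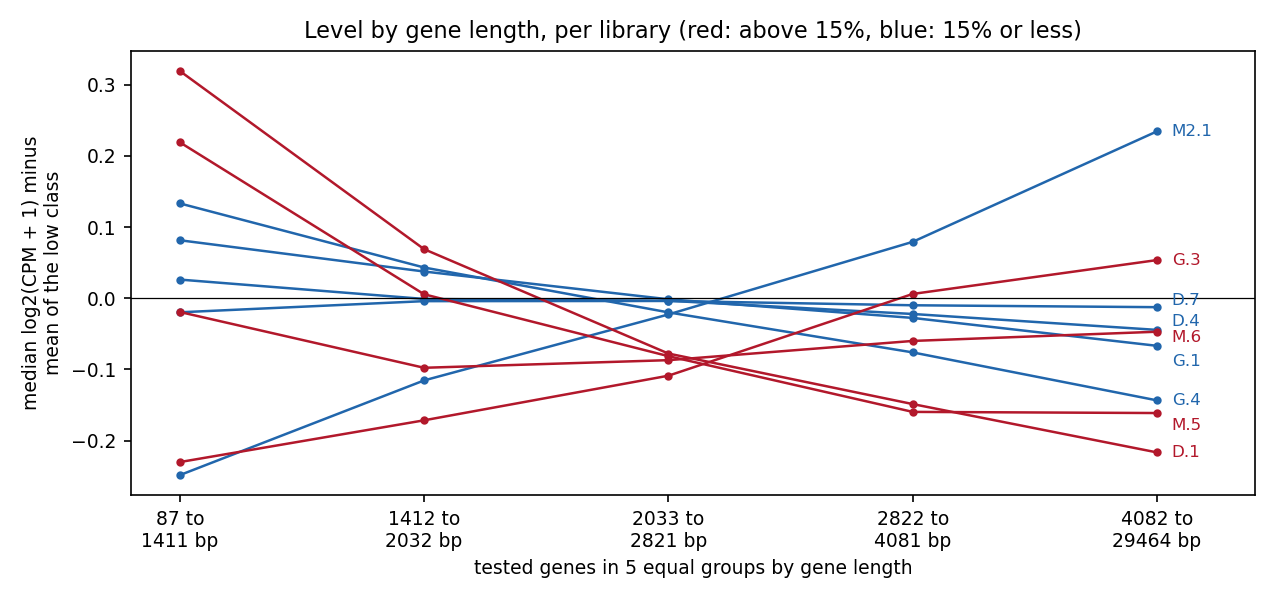
Each line is 1 high-fat library (red above 15%, blue at 15% or less), and each point is the median over 1 of 5 equal groups of tested genes by length, as log2(CPM + 1) minus the mean of the low class. D.1 and M.5 start highest, at 0.32 and 0.22, and end lowest, at −0.22 and −0.16, while M2.1 and G.3 start lowest, at −0.25 and −0.23.

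Since M.6 and G.3 stood apart from M.5 and D.1, the high class was also split at 30% in 1 fit with 3 classes, a choice made after seeing the data. M.5 and D.1 against the low class gave 410 genes (3.2% of those tested), of which 102 were higher (0.796%) and 308 lower (2.4%). M.6 and G.3 against the low class gave 3669 genes (28.6%), 1793 higher (14%) and 1876 lower (14.6%). The direct comparison of M.6 and G.3 with M.5 and D.1 gave 324 genes (2.53%), 159 higher (1.24%) and 165 lower (1.29%). These counts changed when 1 library was left out. Leaving out M.5, D.1, M.6 or G.3 leaves its class with 1 library, which is assumed to vary like the others. Without M.5, M2.1 or D.7 the first fell to 0 in edgeR, with 1549, 2234 and 2387 genes at an unadjusted p under 0.05. It was 15 without D.4, 13 without G.1, 1431 without M.6 and 1521 without G.3. The second was 2059 without G.1 and 1471 without G.3. The third was 0 without D.1, D.4, D.7 or G.1, with 2124, 2459, 2428 and 2544 genes at an unadjusted p under 0.05, 1 without G.3 or G.4, 643 without M2.1 and 1890 without M.6.

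**Figure D5:**
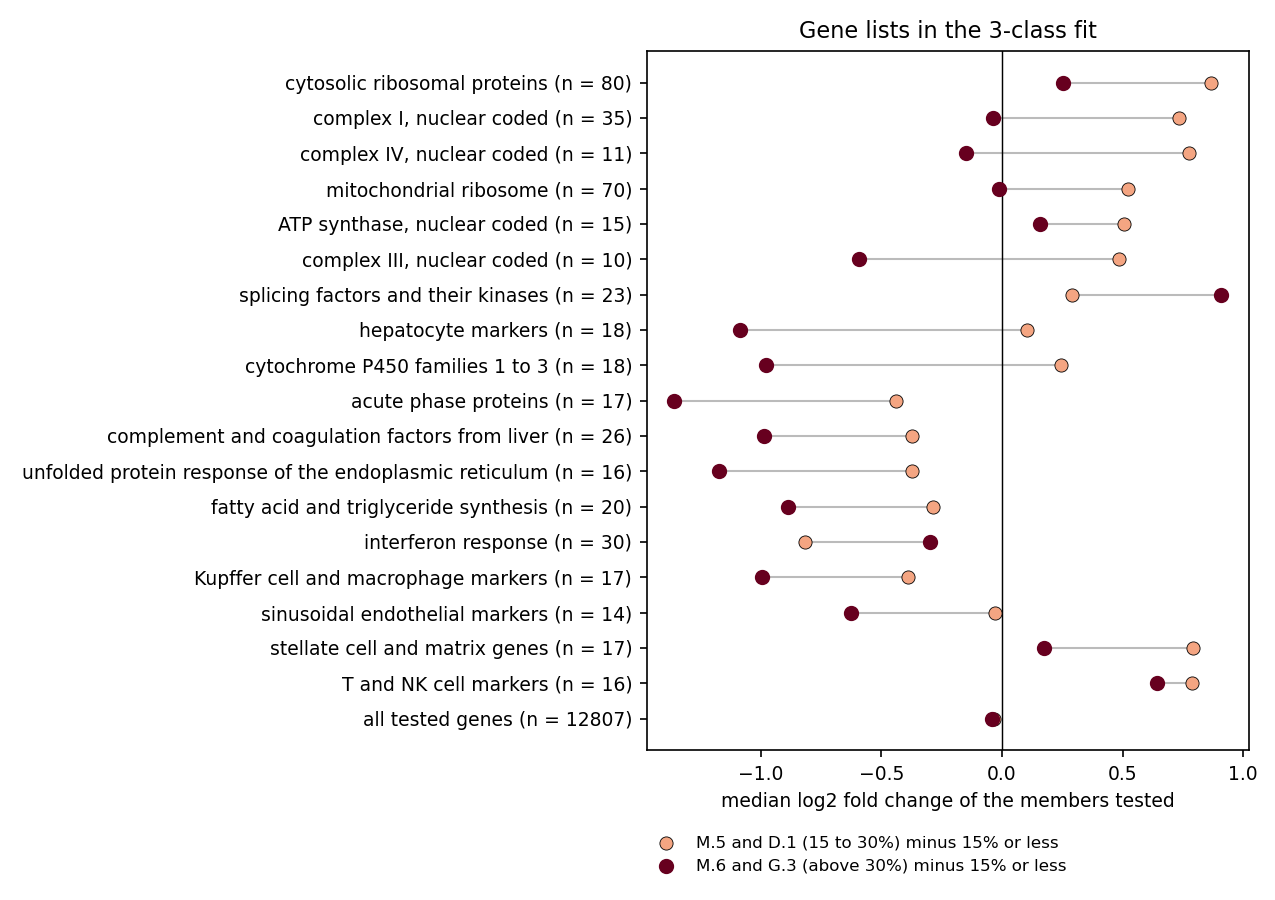
For each gene list, the pale point is the median log2 fold change of M.5 and D.1 against the low class and the dark point that of M.6 and G.3 against the low class, over the number of members tested. Ribosomal protein and complex I genes lie to the right for M.5 and D.1, at 0.87 and 0.73, lists whose median lengths are 696 and 711 bp, and acute phase and unfolded protein response genes lie furthest to the left for M.6 and G.3, at −1.36 and −1.17.

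Nuclear genes that act on mitochondrial DNA and RNA were measured next. For each list count of the 2-class test on all 9 libraries from here on, 5.51% of all tested genes were higher and 8.18% lower. These shares do not hold for fits with a library left out. In the 3-class fit these shares were 0.796% and 2.4% for M.5 and D.1, and 14% and 14.6% for M.6 and G.3. In N.3, 40% of all tested genes were above and 41.1% below both other normal libraries. Of 16 genes of mitochondrial transcription and replication, 2 were higher and 1 lower, with a list median of 0.28. Tfam, which packages the mitochondrial genome and activates its transcription, was at 39.5, 41.7, 47.6 and 24.4 CPM in M.5, M.6, D.1 and G.3 and at 35.4 to 49.3 CPM in the low class, a log2 fold change of −0.08 ± 0.25. The mitochondrial RNA polymerase Polrmt had 0.22 ± 0.26. The classes overlapped in both, and neither passed. Polg, the catalytic subunit of the mitochondrial DNA polymerase, fell, from 136 to 198 CPM in the low class to 45.7, 69.0, 73.4 and 56.7 CPM in M.5, M.6, D.1 and G.3 (−1.39 ± 0.24). Ssbp1, which binds single-stranded mitochondrial DNA, rose from 8.47 to 14.5 CPM in the low class to 16.5 to 35.5 CPM (1.15 ± 0.23), and the transcription termination factor Mterf1 rose by 1.11 ± 0.31.

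Of 19 genes for the processing and stability of mitochondrial RNA, 2 were higher and none lower, and the median was 0.05. Fastkd1 rose, at 11.5 CPM in M.5, 34.5 in M.6, 8.88 in D.1 and 43.9 in G.3 against 5.57 to 7.80 CPM (1.71 ± 0.41), and Ptcd2 rose by 1.40 ± 0.32. Lrpprc, which keeps mitochondrial messages stable, was at 83.9 to 96.1 CPM in the high class and at 107 to 143 CPM in the low class. These ranges did not overlap, but its log2 fold change of −0.54 ± 0.20 had an edgeR adjusted p of 0.086. Of 12 regulators of mitochondrial biogenesis 1 passed, Yy1, a transcription factor, which was lower (−1.12 ± 0.21). Ppargc1a, the best known coactivator of biogenesis, was at 0.216 to 1.08 CPM in the high class and 0.713 to 1.28 CPM in the low class.

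The nuclear-coded subunits work beside the mitochondrial gene products. Of 35 tested complex I subunits 3 were higher and none lower, where 5.51% and 8.18% of all tested genes were, with a median of 0.39. Without D.1, 2 were higher and 2 lower with a median of 0.17, where 1507 and 1570 of 12756 tested genes were. Without G.3, 21 were higher with a median of 0.91, where 546 of 12524 tested genes were. In the normal livers 32 of the 35 were above both other libraries in N.3, where 40% of all tested genes were. Ndufa5 rose, at 96.2 CPM in M.5, 96.3 in M.6, 69.6 in D.1 and 84.3 in G.3 against 33.3 to 52.6 CPM in the low class (1.04 ± 0.21), and Ndufb7 rose by 0.94 ± 0.26. Of 11 complex IV subunits 2 were higher, Cox7c, at 376 to 494 CPM against 138 to 292 CPM (1.04 ± 0.28), and Cox7a2, at 3.10 to 9.32 CPM against 0.400 to 1.45 CPM. Of 15 ATP synthase genes 2 were higher, Atp5e (1.04 ± 0.30) and Atp5i (1.08 ± 0.30). In complex III 1 of 10 passed, in the lower direction: Uqcrc2, a core subunit, was at 25.1 to 50.5 CPM against 79.4 to 115 CPM (−1.46 ± 0.25). None of the 4 complex II genes passed in edgeR, and 1 had an unadjusted p under 0.05. The mitochondrial ribosome had 8 of 70 tested proteins higher and none lower, with a median of 0.23. This count was 22 without G.3 and 3 without M.6 or G.1. Of all tested genes, 546 were higher without G.3, 252 without M.6 and 162 without G.1. Mrps11 was at 40.1 to 51.7 CPM against 16.1 to 24.3 CPM (1.26 ± 0.21).

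The median log2 fold change of complex I was 0.73 for M.5 and D.1 against the low class and −0.04 for M.6 and G.3. It was 0.77 and −0.15 for complex IV and 0.52 and −0.01 for the mitochondrial ribosome. These are lists of short genes, with median lengths of 711, 484 and 1158 bp, and all tested genes up to 1411 bp had a median of 0.35 for M.5 and D.1 and −0.08 for M.6 and G.3. The part of length in the list medians was not tested. In the 2-class fit with M.6 and G.3 left out, where 6.17% of tested genes were higher and 6.32% lower, 25 of the 35 complex I genes and 30 of the 70 mitochondrial ribosomal proteins were higher and none lower. With the class at 30%, that is M.6 and G.3 against the other 7, none of these was higher, and 3 and 5 were lower, where 7.43% of tested genes were higher and 5.86% lower. In that setting the medians of complex I, complex IV, ATP synthase and the mitochondrial ribosome turned negative, at −0.30, −0.42, −0.13 and −0.19. The direct difference between the 2 pairs of libraries passed for 2 of 35 complex I genes, Ndufb4 and Ndufb6, for 1 of 70 of the mitochondrial ribosome, Mrps12, and for none of 11 of complex IV, where 1.29% of all tested genes were lower. The 3 were lower in M.6 and G.3 and were named after their values were seen, and without D.1, D.4, D.7 or G.1 no gene passed in this comparison. Ndufb6 was at 23.7 CPM in M.5 and 39.2 in D.1, and at 8.74 in M.6 and 10.3 in G.3.

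Cytosolic ribosomal proteins, the protein part of the cell's main ribosomes, had 13 of 80 tested genes higher and 1 lower, where 5.51% and 8.18% of all tested genes were. The list had a median of 0.64 and a median length of 696 bp. In N.3, 72 of the 80 were above both other normal libraries, where 40% of all tested genes were. Tested genes up to 1411 bp had a median N.3 difference of 0.31, and the part of length was not tested. The 13 became 45 without G.3, where 546 of 12524 tested genes were higher, and 5 without M.6, where 252 of 12589 were. Rps24 was at 154 CPM in M.5, 182 in M.6, 110.3 in D.1 and 151 in G.3, and at 20.5 in M2.1, 49.0 in D.4, 40.01 in D.7, 51.1 in G.1 and 59.8 in G.4. The high libraries lay above all low ones, with a log2 fold change of 1.89 ± 0.33, and M2.1 was the lowest. The list as a whole did not separate the classes in this way. Its mean log2(CPM + 1) was 6.18 in G.3, below G.1 at 6.28 and G.4 at 6.45, and was lowest in M2.1, at 5.49. Without M2.1 the list median was 0.34. The lower gene was Rpl7l1, a paralogue with a role in making the large subunit, at 8.51 to 11.04 CPM against 21.3 to 29.9 CPM (−1.42 ± 0.21). Without M.6 and G.3, 52 of the 80 were higher, where 6.17% of tested genes were. With the class at 30% none was, where 7.43% of tested genes were, and the median was −0.04. Many ribosomal protein genes have near-identical copies that share reads, so single values are uncertain.

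Genes for the proteins that the liver secretes were low above all in M.6 and G.3. None of 18 hepatocyte markers passed in the 2-class test in edgeR, where 2 had an unadjusted p under 0.05, and the median was −0.47, but 8 were lower in M.6 and G.3 against the low class, with a median of −1.08, while M.5 and D.1 had a median of 0.11 and no member that passed. Of all tested genes, 14.6% were lower in the first of these comparisons and 2.4% in the second. Alb, which codes for albumin, was at 115976 CPM in M.5, 56523 in M.6, 113172 in D.1 and 29054 in G.3, and at 113167 to 130196 CPM in the low class. M.5 and D.1 were level with the low class, and M.6 and G.3 lay below it. The test of the difference itself passed for Ttr, the thyroxine carrier transthyretin (−1.88 ± 0.40, edgeR adjusted p 0.0457), and for Ahsg, named after its values were seen. In this comparison 1.29% of all tested genes were lower, and no gene passed without D.4, D.7 or G.1. Ttr was at 13093 CPM in M.5 and 14453 in D.1, above all low libraries (6446 to 10090 CPM), and at 4933 in M.6 and 3200 in G.3, below them all. The median of the 18 markers was positive, at 0.30, without M.6 and G.3, and at 0.06 without G.3. With library totals alone in place of TMM factors it was −0.24. The TMM factors of the test were 1.25 in M.6 and 1.47 in G.3, against 0.859 to 0.981 in the low class. A larger factor lowers the scaled values of a library. The lowest of the 9 values of Alb, the defining marker of hepatocytes, was thus 29054 CPM, in G.3, so the marker of the labelled tissue was present in every library.

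Of 17 acute phase proteins 1 passed in the 2-class test. Crp, the C-reactive protein, was at 1518 CPM in M.5, 419 in M.6, 2681 in D.1 and 715 in G.3, against 3570 to 4807 CPM in the low class (−1.79 ± 0.50, edgeR adjusted p 0.0389). It was also lower in M.6 and G.3 than in M.5 and D.1 (−1.94, edgeR adjusted p 0.0457), where 1.29% of all tested genes were. No gene passed in that comparison without D.4, D.7 or G.1. Of the 17, 9 were lower in M.6 and G.3 against the low class, where 14.6% of all tested genes were, and none in M.5 and D.1, where 2.4% were. Crp did not pass in the 2-class test without M.6, G.3, M2.1, D.7, G.1 or G.4. The list median of −0.70 was −0.33 without G.3 and −0.51 with library totals alone. Of 26 complement and coagulation factors 3 were lower and none higher, where 8.18% and 5.51% of all tested genes were. Of the list, 13 lay below every low library, where 11.1% of all tested genes did. F5, coagulation factor V, was at 86.3, 51.6, 105 and 47.5 CPM in M.5, M.6, D.1 and G.3 against 222 to 300.4 CPM (−1.84 ± 0.29). Masp1, a protease of the lectin pathway, fell by 1.59 ± 0.28 and the complement component C4a by 1.496 ± 0.27. The median of the list was −0.67, or −0.38 without G.3 and −0.39 with library totals alone. In M.6 and G.3 against the low class, 13 of the 26 were lower.

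The unfolded protein response serves the secretory pathway. Of 16 genes, 2 were lower, where 8.18% of all tested genes were, Pdia4, a protein disulfide isomerase (−1.22 ± 0.36), and Edem1, which takes misfolded glycoproteins to degradation (−1.74 ± 0.41). The median was −0.73, or −0.29 without G.3 and −0.48 with library totals alone, where 1 gene was lower. Neither Pdia4 nor Edem1 passed without M.6, G.3, G.1 or M2.1. In M.6 and G.3 against the low class 10 of the 16 were lower, where 14.6% of all tested genes were. Hspa5, the main chaperone of the endoplasmic reticulum, did not pass in the 2-class test, at 569 CPM in M.5, 322 in M.6, 351 in D.1 and 192 in G.3 against 514 to 705 CPM. In mitochondria the chaperone Hspa9 fell, from 135 to 274 CPM in the low class to 26.8, 62.6, 67.8 and 38.4 CPM (−1.98 ± 0.33), and Tomm70, an import receptor of the outer membrane, fell by 1.80 ± 0.41. The other 18 genes of mitochondrial chaperones, proteases and import did not pass, and the list median of −0.17 turned to 0.10 with library totals alone.

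In lipid metabolism, 4 of 20 genes of fatty acid and triglyceride synthesis were lower and none higher, where 8.18% and 5.51% of all tested genes were. The list median was −0.62, and −0.31 without M2.1. Acaca, the acetyl-CoA carboxylase that commits carbon to fatty acids, was at 5.87, 4.10, 2.76 and 6.35 CPM in M.5, M.6, D.1 and G.3 and at 43.3 in M2.1, 11.7 in D.4, 14.9 in D.7, 14.98 in G.1 and 8.51 in G.4 (−2.12 ± 0.39). Gpam, the first enzyme of triglyceride synthesis, was at 5.87 to 13.3 CPM against 17.9 to 96.9 CPM (−2.29 ± 0.43). M2.1 had the highest value of both. Elovl5, an elongase of polyunsaturated fatty acids, fell by 2.63 ± 0.47, and Fads2, a desaturase of the same chains, by 1.603 ± 0.45. In N.3, 15 of the 20 were below both other normal libraries, where 41.1% of all tested genes were. Of 29 genes of fatty acid oxidation 1 was lower, Hadh, at 63.6 to 147 CPM against 205 to 347 CPM.

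Of 18 cytochrome P450 genes of families 1 to 3, only Cyp3a2 passed in the 2-class test. The list median was 0.24 in M.5 and D.1 and −0.98 in M.6 and G.3, where 9 of the 18 were lower, and the 2-class median of −0.24 turned to 0.35 without M.6 and G.3 and to 0.19 without G.3 alone. In bile acid synthesis and transport, 2 of 19 genes were lower, both transporters. Abcc2, which exports conjugates into bile, was at 130.3, 87.0, 141 and 111 CPM in M.5, M.6, D.1 and G.3 against 189.5 to 353 CPM, and Slco1a1, an uptake transporter, was at 67.9 to 138 CPM against 185 to 328 CPM. In glucose handling, 3 of 16 genes were lower and 1 higher, where 8.18% and 5.51% of all tested genes were. The lower genes were Foxo1 (−1.64 ± 0.43), Pklr (−1.20 ± 0.33) and Irs1 (−1.04 ± 0.29), and Gckr, the regulator of glucokinase, was higher (0.90 ± 0.27). None of the 16 passed in edgeR without M.5, M.6 or G.1, or with library totals alone. Of all tested genes, 1330 passed without M.5, 755 without M.6, 670 without G.1 and 839 with library totals alone. Of 24 genes of the urea cycle and amino acid catabolism none passed in edgeR, and 4 had an unadjusted p under 0.05. Among high-fat libraries, their mean log2(CPM + 1) peaked in G.3, at 8.997, and was lowest in M.6, at 8.00. Low libraries spanned 8.63 to 8.92. For 13 markers of periportal hepatocytes, near the portal vein, M.6 was again lowest, at 8.41. G.3, at 9.386, was just over G.1, at 9.385. Pericentral markers, near the central vein, were lowest in G.3, at 6.54, and M.6, at 6.95, was level with D.7.

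Few genes of the stress lists passed. Of 17 genes of the integrated stress response 2 were higher, Atf3 and Ddit3, a transcription factor of the same pathway, which was at 16.7 to 22.7 CPM against 6.33 to 16.6 CPM (1.003 ± 0.27). The list median was 0.52, with 15 of the 17 members positive, where 6367 of all 12807 tested genes were. Atf4, the central factor of the pathway, did not pass (0.52 ± 0.28). Among 20 hypoxia and glycolysis genes, Vegfa (0.92 ± 0.27) and Car9, which was under 3 CPM in all 9 libraries, were higher and Pfkl was lower (−0.80 ± 0.21). Of 17 targets of the oxidant sensor NRF2, 1 was lower, Nqo1, at 2.16 to 9.68 CPM against 20.5 to 53.1 CPM (−2.36 ± 0.40). Of 10 heat shock genes, Cryab was higher (1.67 ± 0.30).

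Factors that act on splicing had 7 of 23 members higher and none lower, with a median of 0.52, and 13 of the 23 were higher in M.6 and G.3 against the low class, where 14% of all tested genes were. The 7 became 1 without G.3, 4 without M.6, G.1 or G.4 and 12 without D.1. Of all tested genes, 546 were higher without G.3, 252 without M.6, 162 without G.1, 326 without G.4 and 1507 without D.1. Clk1, a kinase that phosphorylates splicing factors, was at 181 CPM in M.5, 319.8 in M.6, 97.4 in D.1 and 371 in G.3, against 56.7 to 82.4 CPM in the low class (1.69 ± 0.34). Tra2a, a splicing regulator, was at 46.2, 76.4, 22.8 and 71.3 CPM against 10.7 to 16.1 CPM (1.86 ± 0.34). In both, D.1 was the lowest of the high class and lay above all low libraries. The related kinase Clk4 rose by 1.605 ± 0.32 and Luc7l2, of the U1 particle, by 1.39 ± 0.29. The classical factors Srsf1 (0.07 ± 0.21) and Srsf3 (−0.05 ± 0.20) did not pass.

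Of 30 interferon response genes 6 were lower and none higher, where 8.18% and 5.51% of all tested genes were, with a median of −0.53. Without D.1 the median was −0.07, with 2 higher and 3 lower, where 1507 and 1570 of 12756 tested genes were. Without D.7 the median was −0.31. With library totals alone it was −0.22, with 1 lower and none higher, where 344 and 495 of 12807 tested genes were. Oas1a, which senses double-stranded RNA, was at 6.55, 7.33, 7.16 and 5.27 CPM in M.5, M.6, D.1 and G.3, against 18.4 to 27.6 CPM in the low class (−1.83 ± 0.23). Ifih1 and Ddx58, which code for the RNA sensors MDA5 and RIG-I, were at 11.1 to 12.6 against 20.6 to 39.5 CPM (−1.24 ± 0.23) and at 1.66 to 6.62 against 7.82 to 37.0 CPM (−2.24 ± 0.50). The list median was −0.82 in M.5 and D.1, where 8 members were lower, and −0.30 in M.6 and G.3, where 4 were lower and 1 higher. From M.5 and D.1 to M.6 and G.3, the difference was positive for 24 of the 30 and negative for 6, with a median of 0.73. Over all 12807 tested genes it was positive for 6677 and negative for 6130. It passed for 1 member, Bst2, which was lower in M.6 and G.3, where 1.29% of all tested genes were, and was named after its values were seen. Without D.4, D.7 or G.1 no gene passed in this comparison.

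Markers of the other cells of liver and of neighbouring tissue gave the following values, and their part in the results above was not tested. Of 17 Kupffer cell and macrophage markers 2 were lower, where 8.18% of all tested genes were, with a median of −0.81. These were Msr1, a scavenger receptor (−1.08 ± 0.25), and Cd163 (−1.003 ± 0.28). The median was −0.46 without D.1 and −0.51 without G.3, and 9 were lower without M.5 and none without G.1 or G.3. Of all tested genes, 759 were lower without M.5, 508 without G.1 and 828 without G.3. Their summed level was 626 to 1205 CPM in the high class and 751 to 2962 CPM in the low class, with D.4 and D.7 highest. Of 14 sinusoidal endothelial markers 1 was lower, Stab2 (−0.97 ± 0.21), with a sum of 424 to 811 CPM against 540 to 822 CPM. Of 17 stellate cell and matrix genes 3 were higher. Tagln was at 27.1, 29.98, 31.98 and 30.3 CPM in M.5, M.6, D.1 and G.3 against 8.33 to 15.7 CPM (1.58 ± 0.22), and Acta2, smooth muscle actin, was at 12.02 to 24.1 against 4.67 to 8.08 CPM (1.55 ± 0.29). The third was Dcn, a matrix proteoglycan. Lrat and Des, which mark stellate cells, did not pass, and the sum over the list was 538 to 1029 CPM against 506 to 787 CPM.

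Of 5 erythroid genes 2 were higher. Hba-a2, an alpha globin, was at 481 CPM in M.5, 1183 in M.6, 1102 in D.1 and 1189 in G.3 against 157 to 438 CPM in the low class (1.89 ± 0.34), and Alas2 rose by 1.41 ± 0.32. The sum over the list was 641 to 1738 CPM in the high class and 298 to 756 CPM in the low class. Of 8 cholangiocyte markers Spp1 was higher (2.64 ± 0.37), with sums of 118 to 135 CPM against 94.3 to 108 CPM. Of 16 markers of T and NK cells, Cd3g was higher and Cd4, which rat macrophages also carry, was lower. Their sum was 86.9 to 112 CPM against 49.2 to 185 CPM. None of 11 markers of B and plasma cells and none of 5 of neutrophils passed in edgeR, with 2 in each list at an unadjusted p under 0.05, and their sums were 263 to 350.1 against 62.1 to 353 CPM and 11.4 to 46.3 against 2.07 to 23.8 CPM. Cela1, an elastase, was the 1 of 3 tested pancreas genes to pass, and the sum over that list was 36.7 to 66.7 CPM against 10.9 to 28.6 CPM. The sums of the 2 classes did not overlap for the cholangiocyte and pancreas lists and overlapped for the others. Among the markers of these cell types listed in the tables, Plin1, of the adipocyte genes, was the 1 that was at 0 in all 9 libraries.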

How the data were processed

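Per the labels' protocols, liver RNA was taken with Trizol and sequenced from NEBNext Ultra libraries. Per the file headers, the 3 tables that the authors deposited hold a raw read count for each gene and library. The submitters' processing notes name DESeq2 and mm9, a mouse build, with no version, while 14408 of 16545 nuclear gene names equal a current rat symbol and 747 more a synonym. Coordinates are therefore not printed. Which aligner, annotation and strand setting were used is not given in the sources used here, so a gene and its antisense partner cannot be told apart. The authors deposited FPKM beside the counts, per the file headers. Gene length is the length that the FPKM values rest on, not the chromosomal span. It was read from the ratio of counts to FPKM in the 6 didymin libraries, at 20 counts or more. The values for a gene were equal between libraries. FPKM served for nothing else, and the other 30 per-sample columns were not used.

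Joining by gene name gave 12 libraries, with 0 where a gene is not listed. None of the model counts differed between tables. Columns were matched to groups by letter, not to single samples. The share is the counts of the 13 genes named Mt- over all counts. The test on nuclear counts was edgeR 4.0.16 (R 4.3.3): filterByExpr, TMM on nuclear counts, arm and class as terms, 5 residual degrees of freedom, Benjamini-Hochberg over 12807 genes, threshold 0.05. The common biological coefficient of variation was 0.337. CPM values use TMM-scaled nuclear totals, and their precision follows the nuclear depth. Alternatives used DESeq2 1.42.0 and limma 3.58.1. The test was tested on simulated data.

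The classes, the threshold and the 49 gene lists were chosen with earlier results of these data known, so list counts are descriptions beside the share of all tested genes, with no set test. The text names, per direction, the 15 genes with the largest change among those that passed at a mean of at least 10 CPM, and of each described list the members of smallest p and the first listed. Genes without a name of their own are counted only. Some genes within this rule are not reported here. List members were matched by symbol or by a synonym that is no other gene's symbol.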

Additional observations from a re-analysis of the deposited data

Results flagged for a closer look

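Within the low class, M2.1 lay apart from the other 4 libraries in several values, all on the log2(CPM + 1) scale. It was far above them in Tob2 (5.84, others 3.57 to 4.19), Elovl5 (7.96, others 6.01 to 6.44), Cpd (5.80, others 3.37 to 4.06) and Hyal1 (6.22, others 4.18 to 4.75). Its mean over the regulators of mitochondrial biogenesis was also high (3.86, others 3.45 to 3.50), and it was low in the means of the NRF2 targets (6.70, others 7.06 to 7.18), the B and plasma cell markers (1.49, others 2.31 to 2.53) and the cholangiocyte markers (2.32, others 2.56 to 2.58). D.7 lay below the others of its class in the mean of genes for mitochondrial RNA processing (4.07, others 4.16 to 4.19), and M.5 above the others of the high class in the mean of genes for glucose handling (6.45, others 6.26 to 6.28). In all, 152 such checks were made, and chance alone marks about 1 in 20 groups.

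In Slfn13 and Rac3, whose log2 fold changes were 2.63 and 2.36, the high library of arm D lay below both low libraries of that arm, while in the model arm and arm G every high library lay above every low one. This difference between arms was not tested.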

How the results depend on the processing

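The count of 1753 genes was 839 with library totals alone, 943 with limma-voom and sample quality weights, 2821 with DESeq2 and 3476 with the log2 odds of the share in place of the class. With DESeq2's size factors in edgeR, TMM on all counts, no filter on low counts, no arm term, all 12 libraries, the class at 30%, M.6 and G.3 left out together, or no arm term without M2.1 (added after seeing the data) it stayed within 1.5 times, between 1387 and 2233. The genes were not all the same: of the 1753, 467 were among the 1703 with the class at 30%, and 823 among the 1545 without M.6 and G.3. Leaving out 1 library gave 4 to 3077, with 755 without M.6, 670 without G.1 and 1144 without G.4. In the fit with 3 classes, leaving out 1 library gave 0 to 1521 genes for M.5 and D.1 against the low class, 1471 to 4097 for M.6 and G.3 against the low class and 0 to 1890 between them, by edgeR. In the first of these it was 15 without D.4, 13 without G.1 and 1431 without M.6, in the second 2059 without G.1, and in the third 643 without M2.1. The cause of these changes was not tested, also for M2.1, without which the model arm has no low library. With no arm term the count was 2233 with M2.1 and 1387 without it. Without both M2.1 and the arm term, class and didymin treatment were partly confounded. Of the list medians named in the report as negative, those of Kupffer markers, acute phase proteins, complement and coagulation, the unfolded protein response, interferon response and fatty acid synthesis kept their sign in all 20 alternatives (that of interferon genes was −0.07 without D.1), as did the positive medians of splicing factors, stellate genes and erythroid genes. No paired analysis was possible because the count columns do not carry the replicate numbers of the labels. Depth limits weakly expressed genes most in G.3 and M.6.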

Other observations

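Genes named Zfp, which code for zinc finger proteins, were looked at after their values were seen. Of 230 tested, 23 were higher in the high class and 11 lower, where 5.51% and 8.18% of all tested genes were, with a median log2 fold change of 0.13. Without G.3 these counts were 3 higher and 10 lower, where 546 and 828 of 12524 tested genes were. Without both M.6 and G.3 they were 4 and 10, where 6.17% and 6.32% of tested genes were. In M.6 and G.3 against the low class 59 were higher and 14 lower, where 14% and 14.6% of all tested genes were. In M.5 and D.1 against the low class 2 were higher and 3 lower, where 0.796% and 2.4% were. Of 243 genes named Slc, which code for solute carriers, 8 were higher and 29 lower, beside the same 5.51% and 8.18% of all tested genes, with a median of −0.22 that turned to 0.02 with library totals alone.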
